A study of Mus musculus with 9 samples.

Results

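Nonsense-mediated decay is the surveillance route that degrades mRNAs whose stop codon is read as premature, and 9 of its core factors, the genes Upf1, Upf2, Upf3a, Upf3b, Smg1, Smg5, Smg6, Smg8 and Smg9, were followed across mouse macrophages treated with 2 inhibitors of the kinase mTOR. They were picked out by gene symbol from the 53342 genes of the count table. All 9 were found, and all 9 were among the 12511 genes that passed a filter on low counts. The cells were bone-marrow-derived macrophages from wild-type C57BL/6J mice, male and female, 8 to 12 weeks old, and bones from different animals were kept apart, so the replicates are separate cultures. The 3 groups, with 3 libraries each, were Torin-2, rapamycin and vehicle. Every group, vehicle included, was first kept for 2 h in medium with its compound or vehicle and then given spinal cord homogenate, made from pooled cords stripped of their meninges, for 24 h at 1% (10 mg of tissue in each mL). Torin-2 is an ATP-competitive inhibitor of mTOR in both of its complexes, while rapamycin is an allosteric inhibitor that acts mainly on mTOR complex 1. Per the series' design text, Torin-2 lowered lipid droplets and rapamycin, which did not, served to account for mTORC1 inhibition. At what dose either compound was used is not stated in the labels, so their effects are set side by side without a match of dose.

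In mammalian cells, the helicase UPF1 joins a terminating ribosome, and UPF2 bridges it to UPF3A or UPF3B, which contact the exon junction complexes left on the mRNA by splicing. SMG1, a kinase of the same family as mTOR, phosphorylates UPF1, and SMG8 and SMG9 bind SMG1 and regulate it. Phosphorylated UPF1 then recruits the endonuclease SMG6, which cuts the mRNA near the stop codon, and the adaptor SMG5, which leads to deadenylation and decapping. In human cell lines the transcripts of UPF1, UPF2, UPF3B, SMG1, SMG5 and SMG6 have been reported to rise when decay is inhibited, a feedback through which the factors' own mRNAs are decay targets.

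The sequences just upstream of 3 members are shown because Smg9 and Smg5 had the largest Torin-2 differences among the members and Smg8, the binding partner of Smg9, had the smallest. Each is the 250 bases before the start site in RefSeq on GRCm38.p6, written 5′ to 3′ on the gene's strand, and all 9 members matched an entry. Smg9 lies at chr7:24399378-24399627 on the plus strand, Smg5 at chr3:88336010-88336259 on the plus strand and Smg8 at chr11:87086778-87087027 on the minus strand. Capitals mark matches, on either strand, to the NRF1 motif, which is GCGCA, any base and GCGC (Smg9), the CpG element TCGCGAGA (Smg5) and the ETS motif CCGGAAG (Smg8).
Smg9: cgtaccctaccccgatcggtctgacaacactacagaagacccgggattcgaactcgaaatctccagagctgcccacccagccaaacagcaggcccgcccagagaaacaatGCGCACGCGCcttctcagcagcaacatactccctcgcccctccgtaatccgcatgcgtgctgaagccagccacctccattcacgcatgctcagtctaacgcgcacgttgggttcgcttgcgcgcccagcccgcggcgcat
Smg5: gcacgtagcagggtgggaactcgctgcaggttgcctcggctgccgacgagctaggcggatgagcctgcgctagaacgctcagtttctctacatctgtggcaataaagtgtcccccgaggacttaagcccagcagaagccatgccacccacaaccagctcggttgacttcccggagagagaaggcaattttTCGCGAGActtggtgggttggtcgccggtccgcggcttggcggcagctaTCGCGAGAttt
Smg8: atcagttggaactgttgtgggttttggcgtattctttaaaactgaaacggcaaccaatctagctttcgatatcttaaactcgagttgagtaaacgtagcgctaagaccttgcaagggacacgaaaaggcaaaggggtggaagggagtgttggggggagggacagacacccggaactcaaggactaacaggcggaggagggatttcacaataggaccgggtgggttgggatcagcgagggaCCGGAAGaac

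The GC content of these stretches was 61.6% for Smg9, 59.6% for Smg5 and 50.8% for Smg8, beside a median of 52.4% over the 32851 promoters of the table. TCGCGAGA, which was picked for the search after the members' promoters had been read, was found in 2 members, Smg5 (at -60 and -11 from the start site) and Upf3b (at -70 and -68, where overlapping matches on opposite strands make up a single palindromic run), and in 0.858% of all promoters. The NRF1 motif was found in 3 members, Upf1 (5 positions, -246 to -25), Smg6 (-170) and Smg9 (-140), and in 3.74% of all promoters. CCGGAAG was found in 1 member, Smg8 (-10), and in 6.91% of all. The E-box CACGTG (6.02% of all promoters), the FOXO motif TGTTTAC (3.17%), the CRE TGACGTCA (1.55%) and TATAAA (12.4%) were in 0 of the 9. The GC box GGGCGG was in 7 members (32.7% of all promoters) and CCAAT in 4 (33.8%). The shares over all promoters were not limited to the genes tested and were not matched for GC content. Over the 9 members GC content ran from 50.8% for Smg8 to 72.8% for Upf1, so these shares do not show an excess in the members. None of the motifs searched was in all 7 members that were higher with Torin-2. The RefSeq start site of Smg9 lies a few bases inside the GENCODE gene model given further on.

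With Torin-2, 7 of the 9 decay factors were higher than with vehicle, by 1.64-fold to 9.66-fold, and the summed level of all 9 was 395.4, 405.3 and 429.7 CPM in Torin-2 libraries, against 138.7, 131 and 161 CPM in vehicle libraries. CPM are counts scaled to a library of 1000000, with TMM factors between libraries, and a member was called higher or lower at a Benjamini-Hochberg adjusted p under 0.05 over all 12511 genes in edgeR's quasi-likelihood test. Across all these genes 32.5% were called higher and 32.9% lower, and 10.5% had a log2 fold change over 1, a size that 6 of the 9 members exceeded. The largest differences were in Smg9 and Smg5, followed by Smg6, Smg1, Upf2, Upf3b and Upf3a. Upf1 and Smg8 did not pass. None of the 9 was lower at an unadjusted p under 0.05 in edgeR, and 0 were called lower in DESeq2. The members' median log2 fold change was 1.50, beside -0.01 over all genes tested. In bulk RNA of this kind a change in the number of cells of a type cannot be told apart from a change in RNA per cell.

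With rapamycin, 3 of the 9 were higher than with vehicle and 0 were lower, and no member had a log2 fold change over 1. The summed level was 172.7, 146.7 and 171 CPM in rapamycin libraries. Over all genes 24.6% were called higher and 26.2% lower. Set directly against rapamycin, Torin-2 had 7 of the 9 higher and 0 lower, where 24.2% of all genes were higher and 24.1% lower. Members' fold changes in the 3 comparisons are not independent, because each pair of comparisons shares the libraries of 1 group.

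**Figure D1:**
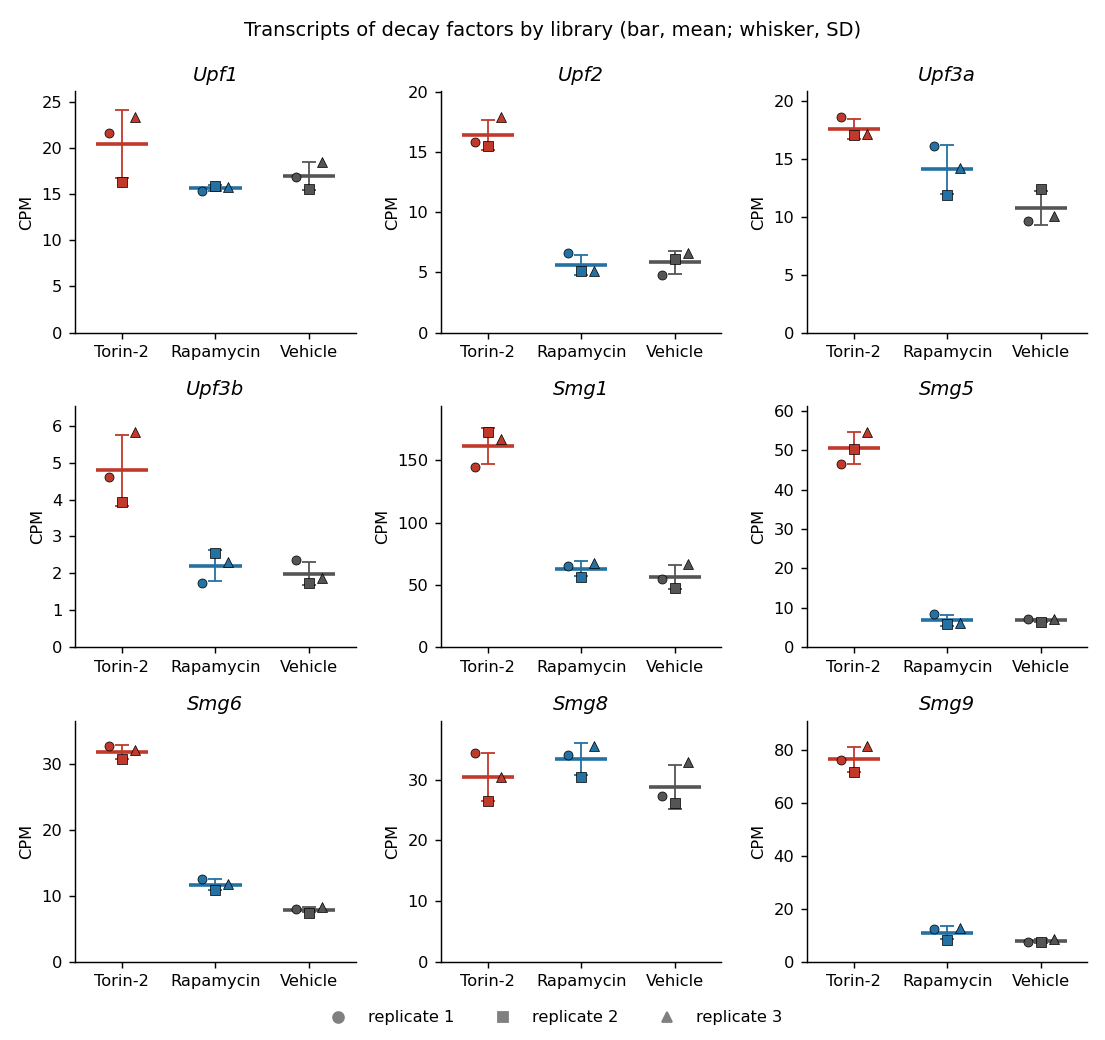
CPM (vertical axes, from 0) of the 9 decay factors in each of the 9 libraries, with the group mean as a bar and the SD as a whisker (n = 3). For Smg9 the Torin-2 libraries sit at 71.9 to 81.4 CPM and the vehicle libraries at 7.52 to 8.71 CPM, while for Smg8 the 3 groups overlap.

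Within the kinase complex that acts on UPF1, Smg9 and Smg1 were higher with Torin-2 and Smg8 did not pass. Smg9, whose product joins the kinase SMG1 to its regulator SMG8, was at 76.3, 71.9 and 81.4 CPM in Torin-2 libraries, 12.3, 8.10 and 12.7 CPM in rapamycin libraries, and 7.54, 7.52 and 8.71 CPM in vehicle libraries. Every Torin-2 library was several times above every library of the other 2 groups, and the rapamycin and vehicle values overlapped. The log2 fold change for Torin-2 against vehicle was 3.27 ± 0.14 (SE), which is 9.66-fold, with an edgeR adjusted p of 3.52e-09. By the size of this rise Smg9 ranked 61 among the 12511 genes.

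Smg8, which in human cells restrains the kinase, was at 34.4, 26.4 and 30.4 CPM in Torin-2 libraries, 34.1, 30.4 and 35.4 CPM in rapamycin libraries and 27.3, 26.1 and 32.8 CPM in vehicle libraries. The 3 groups overlapped. The log2 fold change for Torin-2 against vehicle was 0.08, with a 95% interval of -0.16 to 0.33 and an edgeR adjusted p of 0.542. A rise of up to 0.33 in log2 lies within that interval.

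Smg1, the kinase itself, was at 144.9, 173 and 166.9 CPM in Torin-2 libraries, 65.5, 56.0 and 67.6 CPM in rapamycin libraries and 55.1, 47.8 and 67.1 CPM in vehicle libraries. Torin-2 libraries were all above the others, which overlapped with each other. The Torin-2 rise was 1.51 ± 0.12 in log2 (2.85-fold), with an adjusted p of 3.52e-07 in edgeR.

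Ratios of raw counts within a library do not depend on how libraries are scaled. The counts of Smg9 were 2.21, 2.72 and 2.68 times those of Smg8 in Torin-2 libraries, 0.36, 0.267 and 0.358 times with rapamycin and 0.276, 0.288 and 0.265 times with vehicle. The ratio was 9.14-fold higher with Torin-2 than with vehicle. The counts of Smg1 were 4.21, 6.55 and 5.49 times those of Smg8 with Torin-2, 1.92, 1.84 and 1.91 times with rapamycin and 2.02, 1.83 and 2.04 times with vehicle, a 2.72-fold difference between Torin-2 and vehicle. For both ratios the Torin-2 and vehicle groups did not overlap, and the two-sided exact permutation p was 0.1, the smallest that 3 libraries against 3 allow. The p was 0.15 after Benjamini-Hochberg adjustment over the 18 ratio comparisons computed, for these and for every other ratio whose groups did not overlap, and the pairs were chosen with the members' values known. Here and below, the permutation test shuffles libraries freely and ignores the replicate numbers, which are taken further on to pair the samples. If shuffling kept to that pairing, the smallest possible p would be larger.

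The effectors Smg5 and Smg6, which act after UPF1 is phosphorylated, were both higher with Torin-2. Smg5, an adaptor that binds phosphorylated UPF1, was at 46.5, 50.4 and 54.7 CPM in Torin-2 libraries, 8.43, 5.97 and 6.07 CPM in rapamycin libraries and 7.02, 6.41 and 7.03 CPM in vehicle libraries. The rapamycin libraries lay on both sides of the vehicle libraries, and the Torin-2 libraries were far above both. The log2 fold change for Torin-2 against vehicle was 2.89 ± 0.12 (7.41-fold), with an edgeR adjusted p of 3.08e-09, and Smg5 ranked 90 by rise.

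Smg6, the endonuclease, was at 32.6, 30.7 and 32.1 CPM in Torin-2 libraries, 12.5, 10.8 and 11.7 CPM in rapamycin libraries and 8.01, 7.43 and 8.23 CPM in vehicle libraries. It was the member whose 3 groups were fully separated, in the order Torin-2, rapamycin and vehicle. Its Torin-2 rise over vehicle was 2.01 ± 0.09 in log2 (4.03-fold), with an adjusted p of 3.58e-09 in edgeR. The groups were fully separated for no other member.

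The ratio of the effectors was lower with Torin-2 and higher with rapamycin than with vehicle. The counts of Smg6 were 0.701, 0.609 and 0.588 times those of Smg5 with Torin-2, 1.48, 1.81 and 1.93 times with rapamycin and 1.14, 1.16 and 1.17 times with vehicle. The ratio was 0.545 of the vehicle ratio with Torin-2 and 1.50 of it with rapamycin, and no groups overlapped (two-sided exact permutation p = 0.1 in each case, the smallest possible).

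**Figure D2:**
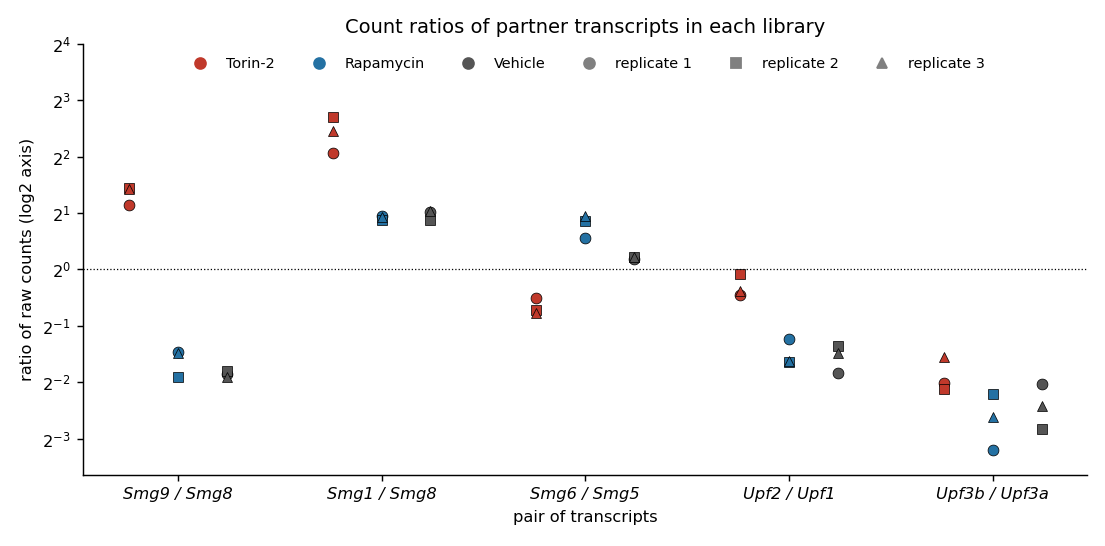
Ratio of raw counts (log2 axis) for 5 pairs of partner transcripts in each library, with colour for the group and marker shape for the replicate number. For Smg9 over Smg8 the Torin-2 libraries sit at 2.21 to 2.72 and the vehicle libraries at 0.265 to 0.288. For Upf3b over Upf3a the groups overlap between Torin-2 and vehicle.

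Of the surveillance factors, Upf2, Upf3a and Upf3b were higher with Torin-2 and Upf1 did not pass. Upf2, the bridge between UPF1 and UPF3 proteins, was at 15.8, 15.5 and 17.9 CPM in Torin-2 libraries, 6.57, 5.11 and 5.11 CPM in rapamycin libraries and 4.75, 6.07 and 6.64 CPM in vehicle libraries. The Torin-2 libraries stood clear of the others. Its Torin-2 rise was 1.50 ± 0.14 in log2 (2.83-fold, adjusted p = 2.11e-06, edgeR).

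Upf1, the central helicase, was at 21.7, 16.4 and 23.4 CPM in Torin-2 libraries, 15.4, 15.9 and 15.8 CPM in rapamycin libraries and 16.9, 15.6 and 18.5 CPM in vehicle libraries. Torin-2 replicate 2 lay within the vehicle range, and the other Torin-2 libraries above it. The log2 fold change was 0.27, with a 95% interval of 0.00 to 0.54 and an adjusted p of 0.0701 in edgeR. In a fit that adds the replicate number as a block the adjusted p was 0.0289, which makes 8 of the 9 higher with Torin-2. That fit called 4354 of all 12511 genes higher, against 4067 without the block. The adjusted p of Upf1 was 0.00512 without Torin-2 replicate 2, 0.0469 without vehicle replicate 3 and 0.0337 with genes of low count kept.

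The counts of Upf2 were 0.731, 0.948 and 0.764 times those of Upf1 with Torin-2, 0.427, 0.321 and 0.324 times with rapamycin and 0.281, 0.389 and 0.358 times with vehicle. Torin-2 and vehicle libraries did not overlap in this ratio, which was 2.38-fold higher with Torin-2 (two-sided exact permutation p = 0.1, the smallest possible).

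Upf3b, the X-linked paralogue that is the more active of the UPF3 pair in human cells, had the fewest counts of the 9. It was at 4.60, 3.93 and 5.84 CPM in Torin-2 libraries, 1.74, 2.56 and 2.31 CPM in rapamycin libraries and 2.36, 1.75 and 1.88 CPM in vehicle libraries, from 27 to 142 counts per library. Every Torin-2 library was above every other, and the rise was 1.26 ± 0.22 in log2 (2.40-fold, adjusted p = 0.00035, edgeR).

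Upf3a was at 18.6, 17.1 and 17.1 CPM in Torin-2 libraries, 16.2, 11.9 and 14.2 CPM in rapamycin libraries and 9.68, 12.4 and 10.1 CPM in vehicle libraries. Torin-2 libraries were above the others, and the rapamycin and vehicle ranges overlapped at 1 library each. The Torin-2 rise was 0.71 ± 0.13 in log2 (1.64-fold, adjusted p = 0.000362, edgeR). The counts of Upf3b were 0.247, 0.231 and 0.341 times those of Upf3a with Torin-2, 0.108, 0.215 and 0.162 times with rapamycin and 0.243, 0.141 and 0.186 times with vehicle. These ratios overlapped between Torin-2 and vehicle (1.45-fold, two-sided exact permutation p = 0.2). Between Torin-2 and rapamycin they did not overlap, and the ratio was 1.73-fold higher with Torin-2 (two-sided exact permutation p = 0.1, the smallest possible).

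Counted over the members, 7 had Torin-2 libraries that were all above all vehicle libraries, a pattern that 35.1% of all genes tested also had. Of the 6 members whose human counterparts have been reported to rise when decay is inhibited, 5 were higher with Torin-2 and Upf1 did not pass. Of the 3 that are not on that list, Smg9 and Upf3a were higher and Smg8 did not pass, so the member with the largest rise was outside it. Across all genes tested 32.5% were called higher. The 7 calls were made under each of the 16 other settings and left-out libraries tried.

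With rapamycin the members that passed were Smg6, Smg9 and Upf3a. Smg6 rose by 0.56 ± 0.09 in log2 (1.48-fold, adjusted p = 0.000322, edgeR), and it was the 1 member of the 9 whose rapamycin libraries were all above all vehicle libraries, as was seen in 27.8% of all genes. Smg9 rose by 0.47 ± 0.15 (adjusted p = 0.0214) and Upf3a by 0.39 ± 0.13 (adjusted p = 0.0255) in the same edgeR fit, and for both of them rapamycin replicate 2 lay inside the vehicle range. The Smg6 call was made under all 16 other settings. Smg9 and Upf3a were each called in 10 of 16, with adjusted p up to 0.0984 for Smg9 and 0.123 for Upf3a. The Smg9 call was lost without rapamycin replicate 1 (0.0806), rapamycin replicate 3 (0.0984), vehicle replicate 1 (0.0717) or vehicle replicate 2 (0.06). The Upf3a call was lost without rapamycin replicate 1 (0.111), rapamycin replicate 3 (0.0605), vehicle replicate 1 (0.104) or vehicle replicate 3 (0.0694).

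For the other 6 members the rapamycin difference did not pass. For Smg5 it was -0.01 in log2 (95% interval -0.31 to 0.28), for Upf2 -0.06 (-0.40 to 0.28) and for Smg1 0.15 (-0.10 to 0.41). For Upf3b it was 0.15 (-0.37 to 0.67), for Upf1 -0.12 (-0.39 to 0.16) and for Smg8 0.21 (-0.04 to 0.46). The adjusted p of these 6 ran from 0.141 for Smg8 to 0.939 for Smg5 in edgeR. Adding the replicate block gave Smg8 an adjusted p of 0.0374, which makes 4 of the 9 higher with rapamycin. The block also called 3462 of all 12511 genes higher, against 3078 without it. Without vehicle replicate 3 the adjusted p was 0.0364 for Smg1 and 0.0349 for Smg8. The count of 3 became 1 without rapamycin replicate 1, without rapamycin replicate 3, without vehicle replicate 1, without replicate 3 of every group and with library totals alone as the scale, it was 2 without vehicle replicate 2, and it was 4 without vehicle replicate 3. With library totals alone 37.4% of the calls over all genes were higher, against 48.5% with TMM scaling.

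In the direct comparison of the compounds, 6 members were higher with Torin-2 by more than 1 in log2. Smg5 (2.90 ± 0.12 in log2) and Smg9 (2.80 ± 0.14) had the largest differences among the members, at 7.48-fold and 6.98-fold, with edgeR adjusted p of 1.53e-08 and 4.67e-08. Upf2 (1.56), Smg6 (1.45), Smg1 (1.36) and Upf3b (1.11) followed, with adjusted p from 1.79e-07 for Smg6 to 0.00154 for Upf3b. The members' median was 1.36 in log2, and 5.71% of all genes exceeded 1. For 8 members the Torin-2 libraries were all above the rapamycin libraries, which held for 28.9% of all genes.

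Upf1 was higher with Torin-2 than with rapamycin by 0.39 ± 0.12 in log2 (adjusted p = 0.0225, edgeR), with no overlap of the libraries. This call was lost without Torin-2 replicate 1 (0.0773), Torin-2 replicate 3 (0.109), rapamycin replicate 1 (0.0632) or rapamycin replicate 2 (0.0512), and without replicate 3 of every group (0.119). Upf3a differed by 0.33 (95% interval 0.05 to 0.60) and did not pass, with an adjusted p of 0.0513 in edgeR. It was 0.039 under the replicate block, 0.0245 without rapamycin replicate 1 and 0.0341 without vehicle replicate 2. Upf3a was called in 6 of the 16 other settings. The rest of these were library totals alone, genes of low count kept and 2 groups only. The block makes 8 of the 9 higher, and 3378 of all 12511 genes, against 3025 of all genes without it. Smg8 differed by -0.13 (-0.38 to 0.12, adjusted p = 0.369). With library totals alone, 59.7% of the calls over all genes were higher, against 50.1% with TMM scaling.

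**Figure D3:**
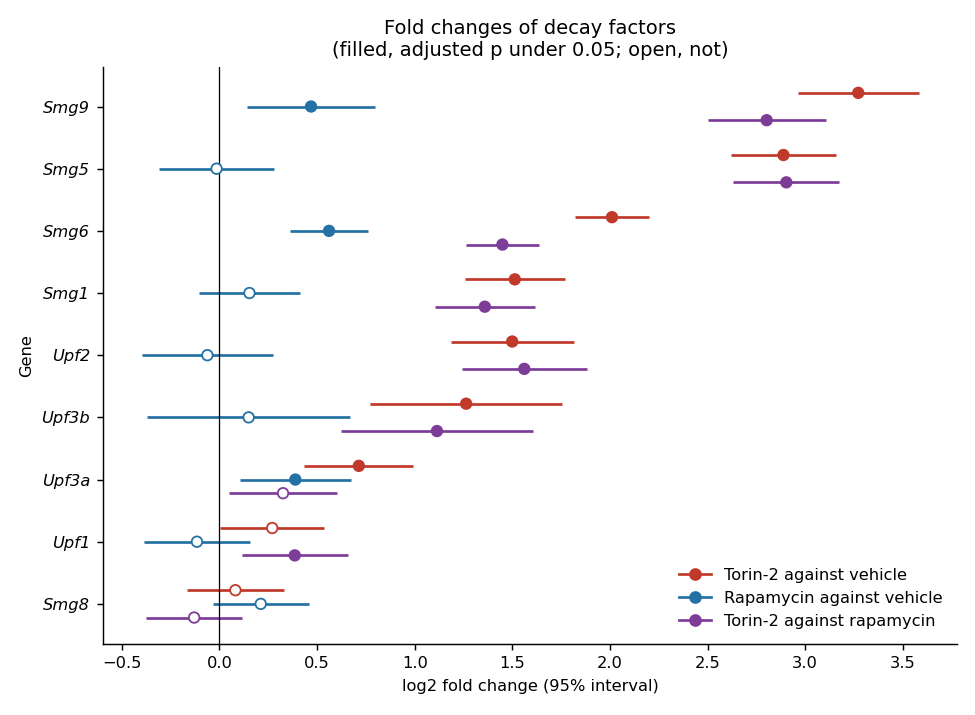
Log2 fold change with its 95% interval (horizontal axis) for each decay factor in the 3 comparisons, ordered by Torin-2 against vehicle. Filled points passed an adjusted p of 0.05 and open points did not. Smg9 and Smg5 sit at 3.27 and 2.89 for Torin-2 against vehicle, and the rapamycin points all lie under 0.6.

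Levels were compared between members per length, as CPM per kb of the coding transcript. With Torin-2 the order ran Smg9, Smg5, Smg1, Smg8, Upf3a, Smg6, Upf1, Upf2 and Upf3b, and with vehicle Smg8, Upf3a, Upf1, Smg1, Smg9, Smg5, Smg6, Upf2 and Upf3b. Smg9 was at 34.1 ± 2.11 CPM per kb with Torin-2 (SD, n = 3), against 4.92 CPM per kb with rapamycin and 3.53 CPM per kb with vehicle. Smg5 was at 11.4 CPM per kb with Torin-2, 1.53 with rapamycin and 1.53 with vehicle, and Smg1 at 10.4, 4.05 and 3.64 CPM per kb in the same order of groups. Smg8 was at 9.45 CPM per kb with Torin-2, 10.3 with rapamycin and 8.94 with vehicle, and Upf3b at 2.04, 0.939 and 0.85. With Torin-2 the ranges of Smg5, Smg1 and Smg8 all overlapped with each other, as did those of Smg8 and Upf3a. With vehicle those of Upf1, Smg1 and Smg9 overlapped, as did Smg6 with Upf2 and Upf2 with Upf3b. Upf3a was at 5.22 CPM per kb with vehicle on its coding transcript and at 1.83 when all annotated exons were counted as its length, so its place in the order depends on the length used. Other places moved as well on the length of all exons. With Torin-2, Smg8 (9.45 CPM per kb) then stood above Smg5 (7.26) and Smg1 (6.74), and Upf1 (4.43) above Smg6 (3.76), while Smg9 was still the highest at 20.7. With vehicle, Smg8 was still the highest at 8.94, Upf1 (3.68), Smg1 (2.36) and Smg9 (2.14) stood above Upf3a, and Upf2 (1.06) above Smg5 (0.98) and Smg6 (0.933). Gene counts hold all transcripts of a gene together, and isoforms could not be separated.

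The gene models of GENCODE M21 on GRCm38 were searched for features known from decay targets. Neither a 5′ ATG nor a transcript annotated as a decay target was found in all 7 members that rose with Torin-2. The same held for a transcript with a retained intron. The search for late junctions could hardly find any, for the reason given below, and no cut-off was set for a long 3′ untranslated region. Smg9 spans chr7:24399619-24422778 on the plus strand, with 14 exons in its coding transcript, a 3′ untranslated region of 400 bp and an ATG in its 5′ untranslated region. Smg5 spans chr3:88336260-88362338 (plus strand, 22 exons), with 1230 bp of 3′ untranslated region and an upstream ATG. Smg8 spans chr11:87077732-87086774 (minus strand), with 4 exons, no upstream ATG and 221 bp of 3′ untranslated region, shorter than all but 14.5% of genes. The median over 11293 tested genes with a complete coding transcript was 961 bp and 9 exons.

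Smg1 spans chr7:118131308-118243670 (minus strand, 63 exons) and has the longest 3′ untranslated region of the 9, 4233 bp, longer than 94.5% of genes. Smg6 spans chr11:74925823-75164448 (plus strand), Upf1 chr8:70331525-70353278 (minus strand) and Upf2 chr2:5951469-6056703 (plus strand). Upf3a spans chr8:13785615-13799193 (plus strand) and Upf3b chrX:37091678-37110322 (minus strand). Their 3′ untranslated regions ran from 719 bp for Upf3a to 1498 bp for Smg6. Long 3′ untranslated regions, upstream reading frames and splice junctions well after the stop codon are known features of decay targets. The letters ATG were found in the 5′ untranslated region of 4 members (Upf2, Smg1, Smg5 and Smg9) and of 49.8% of genes. Whether such an ATG opens a reading frame was not examined. A junction more than 50 bases after the stop codon was found in 0 members and 0.372% of genes. Both searches used only transcripts annotated as protein-coding, a class that leaves out those annotated as decay targets. The low junction counts were therefore largely set by that choice and say little about the members. A transcript annotated as a decay target was listed for 3 members (Smg1, Smg5 and Smg6) and 29.8% of genes, and one with a retained intron for 5 members (Upf3a, Smg1, Smg5, Smg6 and Smg9) and 60.7% of genes. The span of Smg6 overlaps the spans of 6 other genes, among them that of the tested gene Srr by 126 bp. Whether exons overlap was not examined. Since the strand setting of the counting is not given, reads in any shared exon could belong to either gene.

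Genes of the same and neighbouring steps were counted in lists that leave the 9 out. With Torin-2, 32.5% of all genes tested were called higher and 32.9% lower than with vehicle, and with rapamycin 24.6% and 26.2%. For Torin-2 against rapamycin the shares were 24.2% and 24.1%. These shares stand beside the counts of every list below. Of 12 other decay factors 4 rose with Torin-2, 5 fell and 3 did not pass, with a median of -0.05. The largest rises were in the decapping coactivator Pnrc2 (1.26), the poly(A)-binding protein Pabpc1 (1.13) and the helicase Ddx5 (0.77), and the largest falls in Nbas (-0.95), the release factor Gspt1 (-0.78) and the cap-binding Ncbp1 (-0.77). With rapamycin 3 rose and 4 fell, with Pabpc1 at 1.21, while Pnrc2 had a difference of -0.01 (adjusted p = 0.928, edgeR). Against rapamycin, Torin-2 had 2 higher, Pnrc2 (1.27) and Ddx5 (0.37), and 3 lower.

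The exon junction complex, which UPF3 proteins contact, had 1 of 8 genes higher with Torin-2, Casc3 (1.07), and 4 lower, among them Magoh (-0.77), Rbm8a (-0.49) and the helicase Eif4a3 (-0.39). With rapamycin it also had 1 higher, Casc3 (0.66), and 4 lower, and Torin-2 against rapamycin had 1 higher and 3 lower. The calls of this complex were 3 in place of 5 for rapamycin without rapamycin replicate 1 or vehicle replicate 3, and 2 in place of 4 for Torin-2 against rapamycin without Torin-2 replicate 1, rapamycin replicate 2 or rapamycin replicate 3. Of 22 decapping, deadenylation and exonuclease genes, the machinery that acts after SMG5, 16 rose with Torin-2 and 2 fell, with a median of 0.35. Their largest rises were in the decapping cofactor Dcp1b (1.47) and the deadenylase subunits Pan3 (1.40) and Cnot6l (1.26), and the largest fall was in Cnot9 (-0.69). With rapamycin 11 rose and 1 fell, with Pan3 at 0.86, and Torin-2 against rapamycin had 7 higher and 4 lower.

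Smg1, a member of the PIKK family, rose with Torin-2 while no other family member was called higher. Across all genes tested 32.5% were called higher and 32.9% lower, so counts over so few genes do not set Smg1 apart. Of 5 other phosphatidylinositol-3-kinase-related kinases 0 rose with Torin-2, also at an unadjusted p under 0.05, and 3 fell, with Prkdc at -0.40, Mtor at -0.30 and Atm at -0.28 in log2, a count that was 1 without Torin-2 replicate 1. With rapamycin 0 of the 5 were called in edgeR and 2 in DESeq2, and at an unadjusted p under 0.05 edgeR had 1 higher and 1 lower. That count was 1 without vehicle replicate 1, 2 without vehicle replicate 3 and 2 under the replicate block. Against rapamycin, Torin-2 had Prkdc (-0.39) and Mtor (-0.27) lower, a count that was 0 without Torin-2 replicate 1 or rapamycin replicate 3 and 1 without Torin-2 replicate 2, Torin-2 replicate 3, rapamycin replicate 1 or vehicle replicate 1. Of 7 chaperone genes that assemble these kinases 1 rose with Torin-2, Pih1d1 (0.38), and 3 fell, among them Ruvbl2 (-0.80), and without Torin-2 replicate 3 these 4 calls were 2. With rapamycin 0 rose, also at an unadjusted p under 0.05, and 3 fell, led by Ruvbl2 (-0.71), and Torin-2 against rapamycin had 1 higher, Pih1d1 (0.49), and 0 lower.

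**Figure D4:**
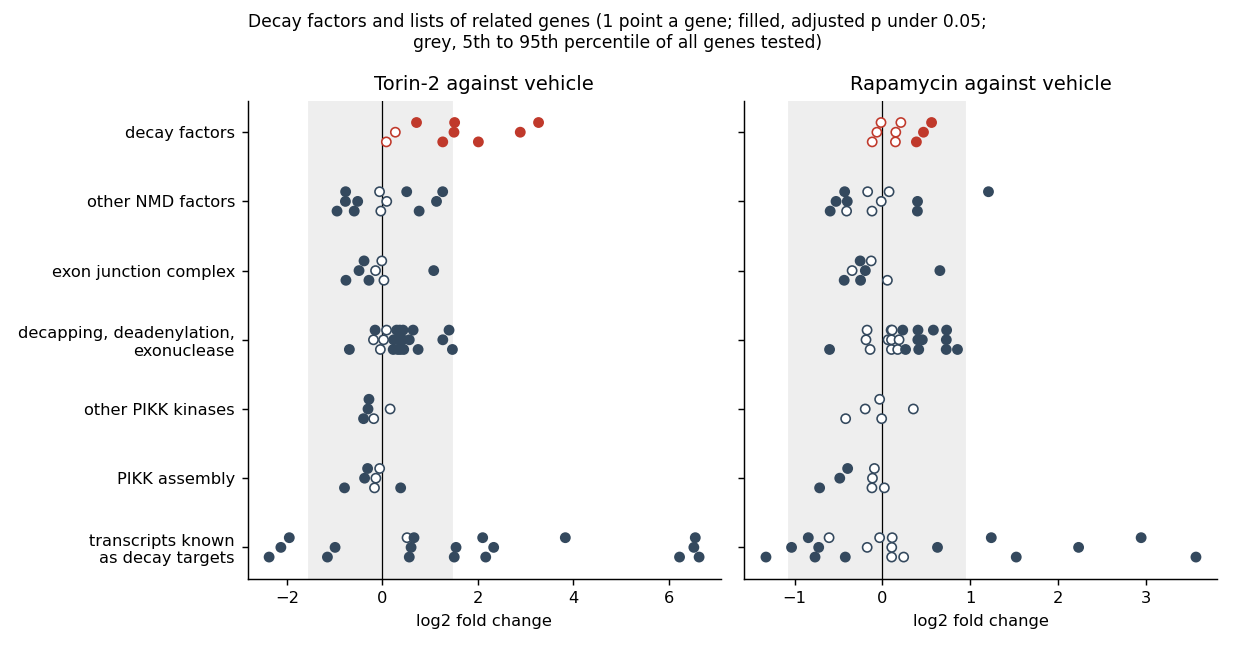
Log2 fold change against vehicle (horizontal axes) of the 9 decay factors (red) and of 6 lists of related genes (1 point a gene), for Torin-2 on the left and rapamycin on the right. Filled points passed an adjusted p of 0.05, and the grey band holds the 5th to 95th percentile of all genes tested. With Torin-2 the decay factors lie at 0.08 to 3.27, while the other PIKK kinases lie near or under 0.

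Of 19 transcripts reported as decay targets in other cells, 13 rose with Torin-2, 5 fell and 1 did not pass, with a median of 1.50. Over all genes tested 32.5% were called higher and 32.9% lower. The snoRNA host transcript Snhg1 was at 92.9 to 103.7 CPM with Torin-2, 0.386 to 1.14 CPM with rapamycin and 0.557 to 1.55 CPM with vehicle. Snhg12 and Zfas1, of the same kind, rose by 6.56 and 6.53 in log2. Their vehicle means were 0.674 and 0.631 CPM, so the size of any rise over vehicle in them rests on few vehicle counts. The 3 largest falls were all in SR splicing factors, Srsf2 (-2.38), Srsf7 (-2.13) and Srsf3 (-1.95). The decay-sensitive form of these SR factors is one with a poison exon, which gene counts do not show apart from the coding form. The other falls were in Tbl2 (-1.15) and Cdkn1a (-0.99), which are not SR factors. With rapamycin 6 of the 19 rose, led by Zfas1 (3.57), and 6 fell, led by Srsf2 (-1.33). Torin-2 against rapamycin had 12 higher, led by Snhg1 (6.81), and 5 lower, led by Srsf7 (-1.29).

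The genes whose profile over the 9 libraries was most like that of Smg9 were sought among 8696 genes, as the root-mean-square difference of centred log2 CPM. Snhg6, a snoRNA host, was nearest at 0.25, and Smg5 came next at 0.26, followed by Arrdc2 (0.27), Kansl3 (0.29) and Il1rn (0.31), which encodes the interleukin-1 receptor antagonist. Snhg6 averaged 80.3 ± 4.63 CPM with Torin-2, 13.9 ± 2.88 CPM with rapamycin and 11.7 ± 1.20 CPM with vehicle (SD, n = 3 each). Among the other members the difference from Smg9 was 0.64 for Smg6, 0.76 for Upf2, 0.77 for Smg1, 0.95 for Upf3b, 1.20 for Upf3a, 1.32 for Upf1 and 1.45 for Smg8. These likenesses rest on 3 groups and describe the same libraries, so they carry no test.

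The 9 libraries held 16116666 to 24044329 counts. The macrophage markers Adgre1, Csf1r, Cd68, Itgam, Mertk, Fcgr1 and Lyz2 summed to 14700 to 16500 CPM with Torin-2, 19100 to 20700 CPM with rapamycin and 11800 to 16400 CPM with vehicle, while the 3 lymphoid markers Cd3e, Ncr1 and Cd79a summed to at most 0.0474 CPM in any library, with Cd3e and Ncr1 at 0 counts in all of them. Transcripts of cord cells were present: 7 oligodendrocyte markers summed to 366 to 423 CPM with Torin-2, 691 to 846 with rapamycin and 480 to 612 with vehicle, 6 astrocyte markers to 31.3 to 33.2, 46.4 to 73.9 and 51.9 to 64.7 CPM in the same order, and 6 neuronal markers to 5.34 to 7.01, 9.82 to 13.3 and 7.75 to 11.6 CPM. Of the tested markers 4 of 5 oligodendrocyte, 3 of 5 astrocyte and 1 of 4 neuronal genes were lower with Torin-2 than with vehicle, and 0 were higher, also at an unadjusted p under 0.05. With rapamycin 3 of 5 oligodendrocyte and 2 of 5 astrocyte genes were higher and 1 oligodendrocyte gene was lower than with vehicle. Of the 7 macrophage markers 2 were higher and 2 lower with Torin-2, and 4 higher and 2 lower with rapamycin. Over all genes tested the shares called higher and lower were 32.5% and 32.9% with Torin-2 and 24.6% and 26.2% with rapamycin. The 6 fibroblast markers summed to 2.38 to 7.17 CPM with Torin-2, 12.3 to 78.2 with rapamycin and 8.95 to 37.8 with vehicle, 4 endothelial markers to 5.86 to 9.46 CPM over all libraries, and 3 microglial markers to 5.22 to 7.70 CPM with Torin-2, 3.61 to 7.47 with rapamycin and 10.3 to 17.9 with vehicle. The part of these transcripts in the members' differences was not tested.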

How the data were processed

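RNA from 9 cultures was measured by RNA sequencing from NuGEN Universal Plus libraries, read at both ends for 100 bp, per the labels' protocols. The authors deposited raw counts per gene, 1 column for each library. The submitters' processing notes name STAR 2.5.2a, bcl2fastq and FastQC, and as builds GRCm38.p6 and mm10. How reads were assigned to genes, with which annotation and strand, is not given in the sources.

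The counts were tested with edgeR 4.0.16 in R 4.3.3. After filterByExpr by group, which kept 12511 genes with 99.92% to 99.94% of counts, and TMM scaling, a single quasi-likelihood model without covariates was fitted to the 3 groups together, and each contrast was tested two-sided with Benjamini-Hochberg adjustment at 0.05. The common biological coefficient of variation was 9.96%. The steps were tested on simulated data with known changes. Those data had no pairing of replicates and few changed genes, so they do not cover paired libraries or changes as wide as those with Torin-2. All 9 members are described. From each related list, up to 3 rises and 3 falls of the largest size are named among called genes with a mean of at least 1 CPM. The profile search took genes with a mean of at least 5 CPM and named 5. The members and lists were chosen with earlier results of these data known. Of the genes first put on the lists, 2 are not reported here, and no count given includes them. Marker lists covered macrophages, oligodendrocytes, neurons, astrocytes, fibroblasts, endothelial cells, lymphocytes and microglia.

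Libraries with the same replicate number deviated together from their group means (correlations of 0.168 to 0.5 over 9 pairs, against -0.358 to 0.162 over 18 other pairs), so the numbers were taken to pair the samples, on the evidence of the data and not of the labels. Fits with the replicate number as a block are given where they change a member's call or move a list's count of calls by over 1.5 times. No 2 libraries of a group were alike within counting noise (chi-square per degree of freedom of 4.8 or more). Alternatives were the replicate block, other scalings, DESeq2 1.42.0, no filter, 2 groups only and left-out libraries. With 27 to 4060 counts per member and library, Upf3b is measured least well. Gene models were from GENCODE M21 and promoters from RefSeq.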

Additional observations from a re-analysis of the deposited data

How the results depend on the processing

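The count of members called with Torin-2 against vehicle was 7 and stayed within 7 to 8 when each library was left out in turn. For Torin-2 against rapamycin it was 7, with a range of 6 to 8. For rapamycin against vehicle it was 3, with a range of 1 to 4 over the left-out libraries, 1 with library totals alone as the scale and 1 with replicate 3 of every group left out. No member's called difference changed sign. With the replicate number as a block, the pairing gave 8 members for Torin-2 against vehicle, 4 for rapamycin against vehicle and 8 for Torin-2 against rapamycin. It added Upf1, Smg8 and Upf3a to those comparisons and changed no other member's call. Calls over all 12511 genes rose as well. In the same order, 4354, 3462 and 3378 genes were higher under the block, against 4067, 3078 and 3025 without it. Of the members' log2 fold changes under alternatives other than a single left-out library, 177 kept their side of the threshold, 7 passed it newly and 5 no longer passed. Those alternatives include the fit without replicate 3 of every group. With a single library left out the numbers were 225, 6 and 12. The cause was not tested. Counts of calls over all genes stayed within 1.5 times of the values given under every alternative run. Depth limits Upf3b, whose counts were the lowest, and the doses of both compounds limit any comparison between them.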
